A study of Bos taurus with 16 samples.

Results

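The heat shock proteins and chaperonins analyzed here were 81 of the 22358 gene loci counted in pools of bovine blastocysts. They were taken by gene symbol and comprised the HSP70, HSP90, HSP110 and small heat shock protein families, the J-domain proteins (DNAJA, DNAJB and DNAJC), the mitochondrial chaperonin pair HSPD1 and HSPE1, and the subunits of the cytosolic chaperonin TRiC, also called CCT (TCP1 and CCT2 to CCT8). The symbol pattern also took 5 genes that are known mainly for other roles or as partners of chaperones (HSPB11, HSPBP1, HSPBAP1, HSPA12A and HSPA12B). The symbol rule uses no measured value, although it was set with earlier results of these data known.

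Holstein cows that had calved were fed either a control diet (4 cows) or the same basal diet made rich in methionine by rumen-protected methionine (4 cows), and their preimplantation embryos were flushed after superovulation. The expanded blastocysts of each cow were divided into 2 pools, which gave 8 control pools (C1.1 to C4.2) and 8 methionine-rich pools (M5.1 to M8.2), the number before the point being the cow. The labels name the tissue as IVF embryos, whereas the study's methods describe embryos flushed from the donor cows. The study lists 1 or 2 blastocysts per control pool and 1 to 4 per methionine-rich pool. C4.1, C4.2 and M8.2 each held a single blastocyst. The study gives no RNA quality number for C2.2 and C4.2. Several methionine-rich pools had a lower number than every control pool with a value. The concentration of amplified RNA also varied between pools and was lowest in the pools of cow 8. The part of RNA quality and concentration in the results was not tested. The RNA of each pool, all from 1 cow, was linearly amplified before sequencing. The question was whether the maternal diet changes the embryo transcriptome.

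Chaperones bind unfolded or partly folded proteins and help them to reach or regain their shape. HSP70 proteins work in cycles of ATP use that are started by J-domain proteins, HSP90 acts late in the folding of kinases and receptors, and chaperonins are barrels that enclose a protein while it folds. Some of these genes are switched on by heat shock factor 1 under stress, while others are made in nearly every cell, and blastocysts of mammals are known to transcribe HSP70 and HSP90 genes without any imposed stress.

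In 15 pools between 5624126 and 7826542 reads were counted, and in C3.2 1745048. The study left C3.2 out for its few reads on exons, and it was left out of the comparison here, leaving 7 control and 8 methionine-rich pools. Expression is given as CPM (a gene's count divided by the pool's total and scaled to the same sum in every pool), and 3 counts correspond to between 0.383 and 0.533 CPM in the 15 pools. Each pool had at least 3 counts for 10 or 11 of 13 blastocyst markers, not always the same ones. SOX17 had 0 counts in all 15 pools and ELF5 a median of 0. The lowest pool had 0 counts for CDX2 and 1 for NANOG. In pool C2.1, all 10 leukocyte markers had at least 3 counts and summed to 1933 CPM, against 0.256 to 17.9 CPM in the other 14 pools. LAPTM5 (6969 counts), TYROBP (2122) and LCP1 (1031) led that sum, whereas CD74 and CORO1A had 14 counts each. PTPRC and FCER1G had more counts in another pool (18 in C2.1 against 48 in M8.1, and 5 against 8 in M8.2). Of the 6 uterine stroma markers, VIM, which leukocytes also make, had 3283 counts in C2.1, whereas the others had between 1 and 32 counts there and were each higher in another pool. The 6 summed to 592 CPM in C2.1, against at most 138 CPM in the others. In pooled embryos, fewer cells that express a gene and less RNA per cell cannot be told apart. Cows, not pools, are the independent units, so a test over 15 pools can understate the error.

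Nearly all of these chaperone genes did not pass the test between the diets. Of the 81 members, 64 had enough reads to be tested, 17 did not, and 46 had at least 3 counts in all 15 pools. By the exact test of edgeR with a false discovery rate (FDR) under 0.1 and a 2-fold difference or more, 1 of the 64 was differentially expressed, against 1.05% of all 10519 tested loci. That gene was DNAJC5G, higher in control, a direction taken by 0.77% of all tested loci. No member was called higher in methionine-rich pools, as were 0.276% of all loci. By the quasi-likelihood test of edgeR no member passed (smallest FDR 0.302), nor did any other locus (0.0%), while 2 of the 64 members had an unadjusted p under 0.05, against 8.64% of all loci. The exact test gave 2 members with an unadjusted p under 0.05, DNAJC5G and DNAJB12, against 8.54% of all loci.

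The quartiles of the members' differences lay closer together than those of the loci as a whole. The median log2 fold change (methionine-rich over control) was -0.07 over the 64 members, with quartiles of -0.35 and 0.19, and -0.05 over all tested loci, with quartiles of -0.53 and 0.36. By sign, 38 members were higher in control and 26 in methionine-rich pools. An absolute log2 fold change under 1 was found for 55 of the 64 members (85.9%), against 75.3% of all loci. Low counts give wide fold changes, so the members with a mean of at least 100 CPM were also counted. All 20 of them were under 1, the widest being 0.68, against 98.9% of the 1410 loci at that abundance. By this count the members were close to other loci of like abundance.

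**Figure D1:**
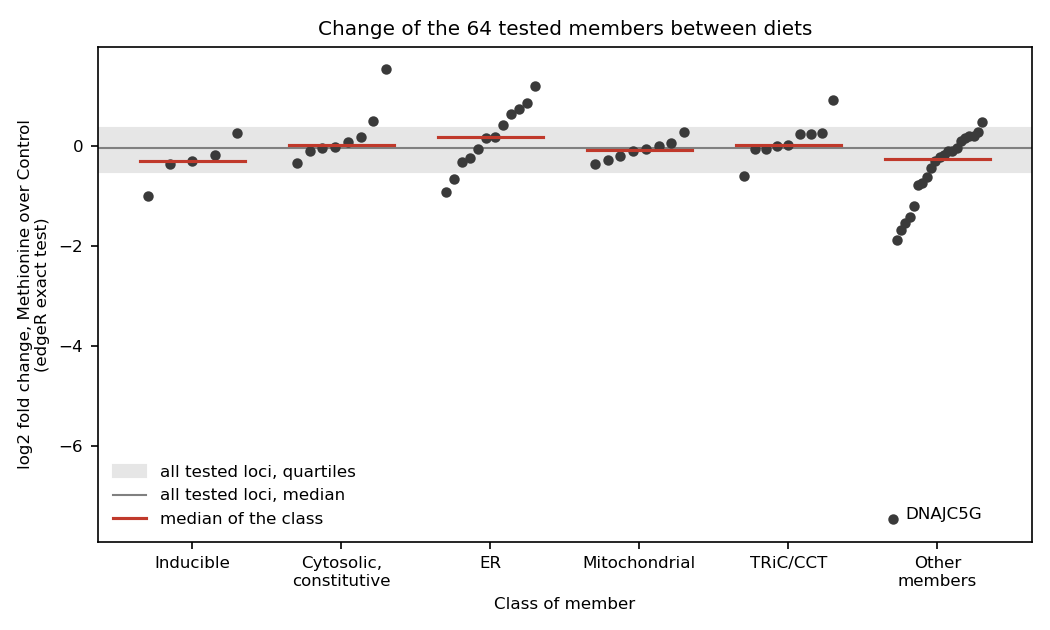
Log2 fold change (y axis, methionine-rich over control, exact test of edgeR) of the 64 tested members by class (x axis), 1 point per gene, with the median of each class in red and the median and quartiles of all 10519 tested loci in grey. The class medians lie between -0.31 and 0.17 and DNAJC5G stands alone at -7.47.

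The stress-inducible members are the genes that heat shock factor 1 drives most strongly, and they were read first. HSP90AA1, the inducible form of cytosolic HSP90, had 966 to 1605 CPM in control (median 1192) and 862 to 1391 CPM in methionine-rich pools (median 1079.8). The groups overlapped over most of their range, with C1.2 the highest pool and M7.1 the lowest. The log2 fold change was -0.18 (FDR 1 by the exact test of edgeR), and DESeq2 estimated -0.18 ± 0.16 (SE), with a 95% interval from -0.49 to 0.14. HSP90AA1 was also among the steadiest transcripts measured: the SD of its log2 CPM over the 15 pools was 0.25, and only 11 of the 10519 tested loci had a smaller one.

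DNAJB1, the J-domain partner that loads inducible HSP70, had 147 to 545 CPM in control (median 313) and 159.7 to 634 CPM in methionine-rich pools (median 351). Its log2 fold change was 0.26, with a DESeq2 interval from -0.44 to 0.97, and it turned to -0.08 without cow 8. HSPB1, the small heat shock protein HSP27, had 108 to 348 CPM in control (median 175) and 66.5 to 304 CPM in methionine-rich pools (median 135). The methionine-rich pools of HSPB1 were all at or below 168 CPM except M7.2, and the log2 fold change of -0.36 had an FDR of 0.967 by the exact test of edgeR. HSPH1, the HSP110 protein that recharges HSP70 by nucleotide exchange, had 10.2 to 52.2 CPM in control (median 32.7) and 11.6 to 45.4 CPM in methionine-rich pools (median 29.0), with a log2 fold change of -0.31.

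HSPA1A, the classical inducible HSP70, was close to the limit of the depth. It had 128 counts over the 15 pools, 0.404 to 3.10 CPM in control (median 1.72) and 0 to 2.30 CPM in methionine-rich pools (median 0.339). The highest methionine-rich pools were M7.1 (2.30 CPM) and M7.2 (2.28 CPM), both of cow 7, and the remaining 6 lay at or below 0.965 CPM. The log2 fold change was -1.0 (FDR 0.969 by the exact test of edgeR), and DESeq2 gave -1.01 ± 0.90 (SE), with an interval from -2.79 to 0.76. HSPA1A has near-identical copies, between which the authors' counting could have split or dropped reads, so its value is uncertain. HSPA6, another strictly inducible HSP70, had 55 counts over the 15 pools and was not tested. Its reads were in a few pools of both diets, led by M5.2 (3.17 CPM), C1.1 (1.98 CPM) and C4.1 (1.15 CPM), and both group medians were 0. HSPA1B was not analysed here.

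**Figure D2:**
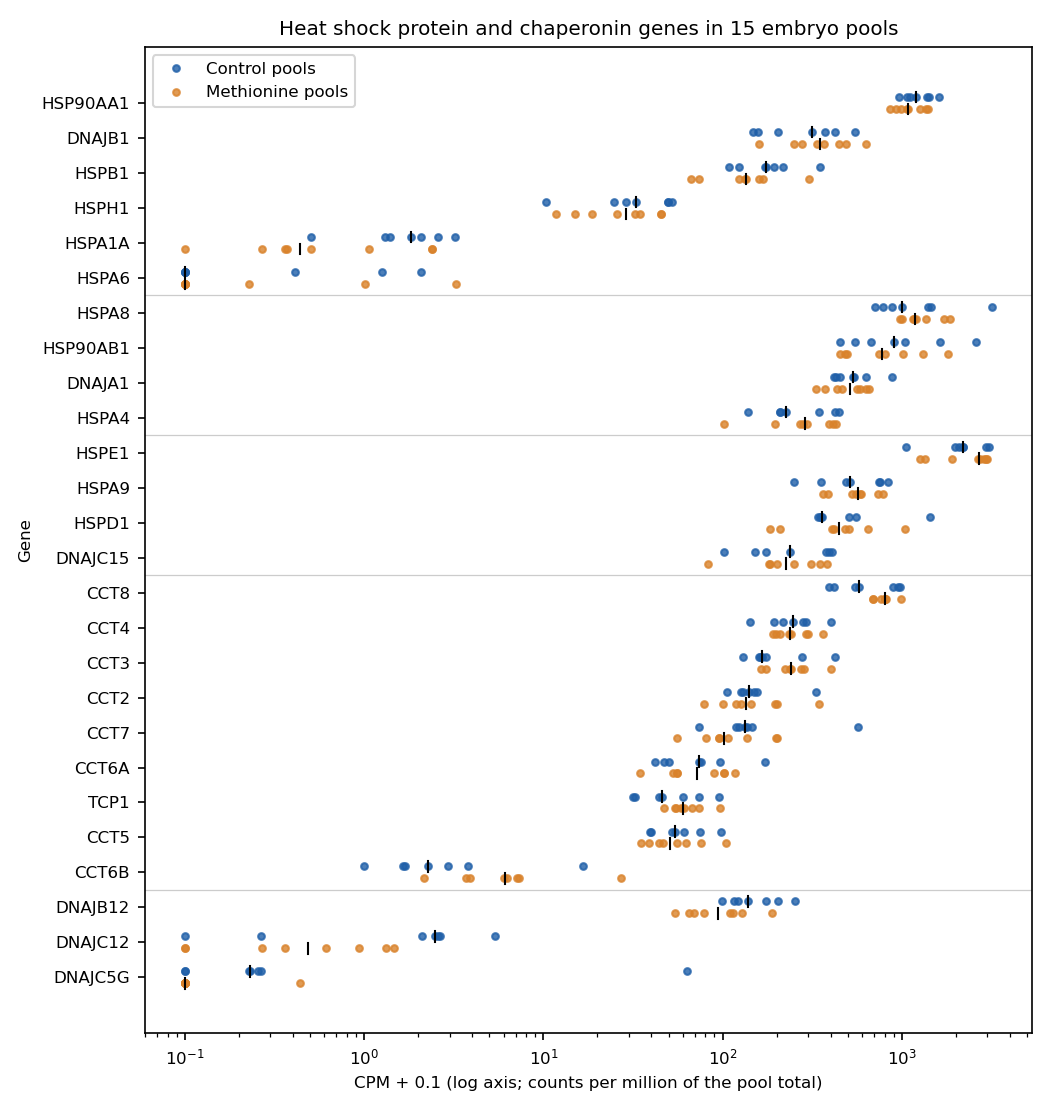
CPM + 0.1 (x axis, log scale) of the inducible members, the highest cytosolic and mitochondrial members, the TRiC subunits and the 3 further members named by rule (y axis), 1 point per pool, with a black tick at each group median. Control and methionine-rich pools overlap for every gene drawn.

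The constitutive cytosolic chaperones showed no called difference, with 4 of 8 higher in control by sign, 4 higher in methionine-rich pools and a median log2 fold change of 0.01. HSPA8, the HSP70 of unstressed cells, had 706 to 3168 CPM in control (median 1001) and 971 to 1862 CPM in methionine-rich pools (median 1183). Pool C4.2 held the 3168 CPM, and the next control pool had 1453 CPM. The log2 fold change of HSPA8 was -0.04, with a DESeq2 interval from -0.55 to 0.51. HSP90AB1, the HSP90 made without stress, had 454 to 2594 CPM in control (median 900.0) and 454 to 1806 CPM in methionine-rich pools (median 772), with C2.2 the highest pool. Its log2 fold change was -0.35 and its interval ran from -1.06 to 0.37.

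The SD of log2 CPM of HSP90AB1 was 0.72, against 0.25 for its inducible relative HSP90AA1. DNAJA1, a farnesylated J-domain protein of the cytosol, had 419 to 876 CPM in control (median 534) and 334 to 656 CPM in methionine-rich pools (median 513), with a log2 fold change of -0.11 and an SD of 0.37. HSPA4, an HSP110 relative that acts as nucleotide exchange factor, had 139 to 447 CPM in control (median 227) and 101 to 430.1 CPM in methionine-rich pools (median 289), with a log2 fold change of 0.06. The widest difference of the constitutive list was that of HSPA2, an HSP70 best known from the testis, which had few reads: 0.132 to 2.83 CPM in control and 0.841 to 14.9 CPM in methionine-rich pools, of which M5.1 held the 14.9 CPM. Its log2 fold change of 1.52 had an FDR of 0.77 by the exact test of edgeR.

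The balance of inducible against constitutive transcripts was described by sums of CPM, averaged over the pools of each cow. The inducible members summed to 1769 ± 202 CPM in control (SD, n = 4 cows) and 1664 ± 68.8 CPM in methionine-rich cows (SD, n = 4). The constitutive members summed to 3381 ± 509 CPM in control and 3119 ± 659 CPM in methionine-rich cows (SD, n = 4 each). The inducible share of both sums together was 35.7 ± 1.07% in control and 35.4 ± 5.67% in methionine-rich cows (SD, n = 4 each). Each of these differences was smaller than the SD between cows pooled over both diets, which was 151 CPM, 589 CPM and 4.08 percentage points, and the cows of both diets overlapped in all 3 measures. The difference of the inducible sums was -104 CPM and turned to 21.1 CPM with all 16 pools. That of the constitutive sums was -262 CPM and turned to 103 CPM without C4.2. Without C2.1, the pool with the highest leukocyte marker sum, it was -636 CPM, with cow 2 represented only by C2.2, the highest pool (5568 CPM). The SD between cows was not computed for that set, so the -636 CPM has no matching spread. Without cow 2 altogether the difference of the constitutive sums was -31.0 CPM. The difference of the shares was -0.32 percentage points and had no stable sign: it was 1.38 without C2.1, -3.35 without C4.2, 1.25 with all 16 pools, 1.75 with a wider inducible list, 2.06 without the leading member of each list and between -2.69 and 1.93 without single cows.

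Pools of the same cow differed in this share by more than the means of the diets did, although means over cows vary less than single pools. In cow 4, whose pools each held a single blastocyst, it was 48.2% in C4.1, the highest of the 15 pools, and 24.0% in C4.2, the lowest. In cow 2 it was 42.3% in C2.1 and 28.7% in C2.2, and in cow 6 it was 31.5% in M6.1 and 25.8% in M6.2. The pools of cow 1 were close, with 37.3% in C1.1 and 36.5% in C1.2. The highest methionine-rich pool was M8.2 with 46.1%. HSP90AA1 was the member with the most reads in the inducible sum, and without the leading member of each list the difference of the inducible sums was 2.20 CPM.

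**Figure D3:**
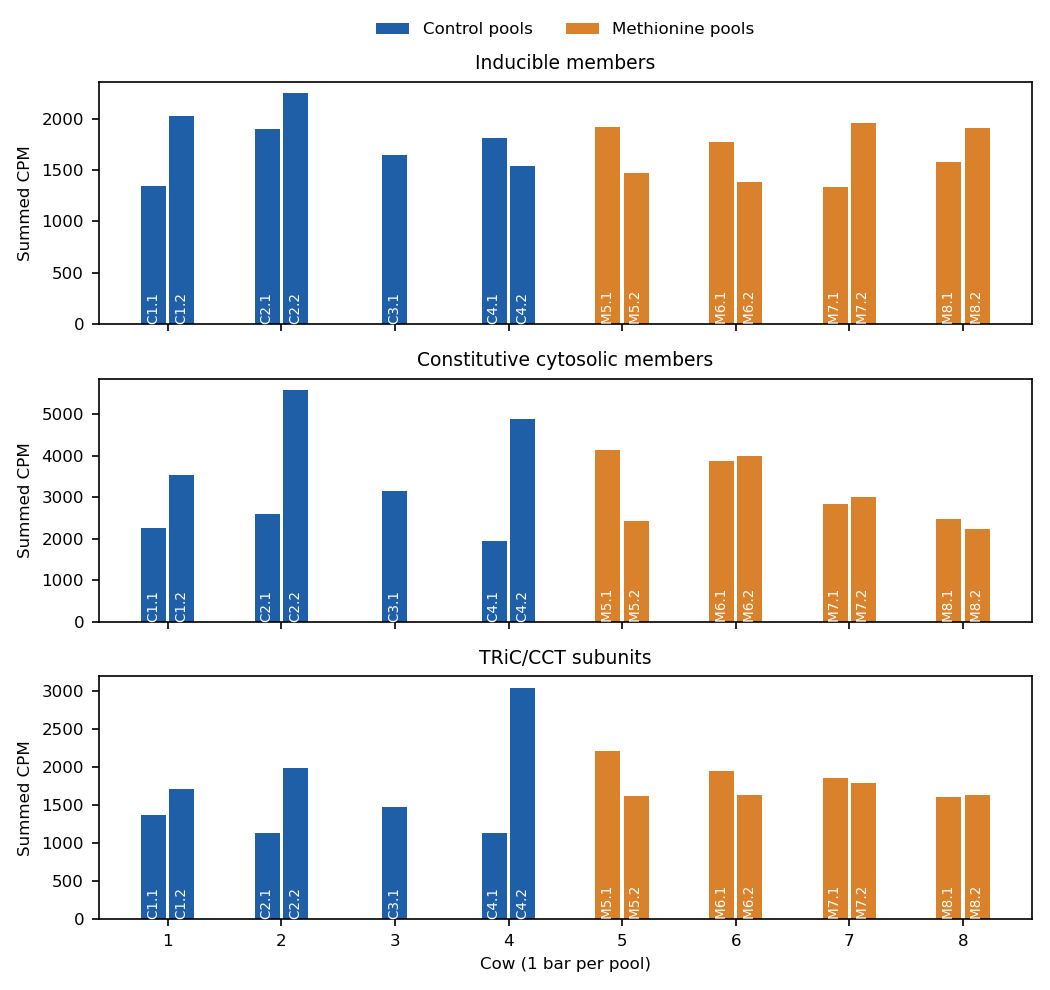
Summed CPM (y axes from 0) of the inducible members (top), the constitutive cytosolic members (middle) and the TRiC subunits (bottom), 1 bar per pool, grouped by cow (x axis) and coloured by diet. Cow 4 holds both the lowest (1127 CPM) and the highest (3044 CPM) TRiC sum of the control pools.

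TRiC is a double ring of related subunits that folds actin and tubulin, and its subunit genes are made in all dividing cells. None of the 9 subunit genes was called, 4 were higher in control and 5 in methionine-rich pools by sign, and the median log2 fold change was 0.01. CCT8 had 389.5 to 974 CPM in control (median 579) and 690.0 to 984 CPM in methionine-rich pools (median 803). The methionine-rich pools other than M7.1 (984 CPM) lay between 690.0 and 816 CPM, whereas the control pools ran from C4.1 at the bottom to C1.2 at the top, and DESeq2 estimated a log2 fold change of 0.27 ± 0.23 (SE) with an interval from -0.18 to 0.71. CCT4, with 143 to 401 CPM in control (median 246) and 190.3 to 363 CPM in methionine-rich pools (median 238), was level between the diets, with a log2 fold change of 0.01, and had a small spread (SD 0.35; 135 tested loci had a smaller one).

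CCT3 had 129 to 423 CPM in control (median 166) and 164 to 401 CPM in methionine-rich pools (median 239), with a log2 fold change of 0.23. TCP1, the founding subunit, had 31.3 to 95.4 CPM in control (median 45.5) and 46.9 to 96.7 CPM in methionine-rich pools (median 59.8), also with 0.23. CCT2, CCT5 and CCT6A had log2 fold changes between -0.08 and -0.02. None of these 5 had separate groups.

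CCT7 had 73.8 to 571 CPM in control (median 133) and 55.6 to 202 CPM in methionine-rich pools (median 101). The 571 CPM was in C4.2 and the next control pool had 146 CPM. Its log2 fold change of -0.60 had an FDR of 0.816 by the exact test of edgeR. CCT6B, the paralog of CCT6A that is best known from the testis, had 0.900 to 16.5 CPM in control (median 2.17) and 2.07 to 27.1 CPM in methionine-rich pools (median 6.03). Single pools, C4.1 with 16.5 CPM and M8.1 with 27.1 CPM, stood above the rest of their groups, whose next values were 3.69 and 7.24 CPM. Its log2 fold change was 0.92 (FDR 0.940 by the exact test of edgeR). Although the DESeq2 estimate of 1.06 ± 0.49 (SE) had an unadjusted interval from 0.10 to 2.02, DESeq2 called no member. DESeq2 replaces outlying counts by default in groups of this size, so these single pools may not enter its interval at full value.

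The TRiC subunits differed widely between the pools of cow 4, a pattern picked after the values were seen. The subunits summed to 1127 CPM in C4.1 and 3044 CPM in C4.2, a ratio of 2.70, and these were the lowest and highest control pools. Each of these pools held a single blastocyst and was amplified on its own. Differences between the embryos and between their libraries cannot be told apart. C4.2 was the highest control pool for 7 of the 9 subunits, the others being CCT8, for which C1.2 was higher, and CCT6B. Of the 8 subunits without CCT6B, 7 were at least 2-fold higher in C4.2 than in C4.1, with a median ratio of 2.54. CCT6B went the other way, with 16.5 CPM in C4.1 and 1.54 CPM in C4.2. A value at least 2-fold higher in C4.2 was also found for 10 of the 20 members with at least 100 CPM (median 1.63) and for 20.4% of the 1410 loci of that abundance (median 1.05). HSPA8 (4.04-fold), HSPA9 (2.99-fold) and HSPD1 (2.59-fold) were higher in C4.2 as well, whereas HSP90AA1 (0.804-fold), DNAJB1 (0.505-fold) and HSPE1 (0.647-fold) were lower. The 13 blastocyst markers also summed higher in C4.2 (9950.2 CPM, the highest of the 15 pools) than in C4.1 (4941 CPM), and their part in the pattern was not tested. Over cows, the TRiC sum was 1664 ± 283 CPM in control and 1788 ± 123 CPM in methionine-rich cows (SD, n = 4 each), a difference of 124 CPM that became 364 CPM without C4.2 and 17.1 CPM without C2.1.

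The mitochondrial chaperones fold proteins that have been imported into the matrix, HSPA9 being the HSP70 of the import motor and HSPD1 with its lid HSPE1 the chaperonin barrel. None of the 8 tested members of this class was called, and their median log2 fold change was -0.09. HSPE1 had the most reads of all members, with 1060.1 to 3048 CPM in control (median 2196) and 1262 to 2977 CPM in methionine-rich pools (median 2683). The 2 pools of cow 8 were the lowest methionine-rich pools, and the log2 fold change of HSPE1 was 0.04 with an interval from -0.52 to 0.62.

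HSPD1, which is transcribed from the same promoter region as HSPE1 in mammals, had 341 to 1443 CPM in control (median 359.6) and 184 to 1044 CPM in methionine-rich pools (median 448). C4.2 held the 1443 CPM and the next control pool had 558 CPM, and the log2 fold change was -0.22. HSPA9 had 250.1 to 841 CPM in control (median 510.3) and 362 to 780.1 CPM in methionine-rich pools (median 571), with a log2 fold change of 0.00 and an interval from -0.47 to 0.49. DNAJC15, a J-domain protein of the inner membrane, had 102 to 409 CPM in control (median 238) and 83.1 to 383 CPM in methionine-rich pools (median 226), with a log2 fold change of -0.11. The mitochondrial sum was 3748 ± 659 CPM in control and 3827 ± 1067 CPM in methionine-rich cows (SD, n = 4 each).

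The chaperones of the endoplasmic reticulum fold secreted and membrane proteins and are raised by the unfolded protein response. Of the 12 tested, none was called, 5 were higher in control and 7 in methionine-rich pools by sign, and the median log2 fold change was 0.17. HSPA5, the HSP70 known as BiP, had 7.0 to 25.5 CPM in control (median 9.40) and 5.41 to 23.1 CPM in methionine-rich pools (median 7.80). HSP90B1, the HSP90 of this compartment, had 55.5 to 149 CPM in control (median 68.9) and 24.5 to 105 CPM in methionine-rich pools (median 70.1). DNAJB11, a BiP partner, had 49.0 to 168 CPM in control (median 106) and 48.6 to 242 CPM in methionine-rich pools (median 124.99). The groups overlapped for all 3, and the sum of the class was 502 ± 92.3 CPM in control and 497 ± 76.6 CPM in methionine-rich cows (SD, n = 4 each).

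DNAJB12, a membrane-anchored J-domain protein of the endoplasmic reticulum that takes part in the disposal of misfolded membrane proteins, came nearest to a difference among the members with many reads. It had 99.6 to 254 CPM in control (median 138) and 54.4 to 188 CPM in methionine-rich pools (median 94.3). All control pools lay above the methionine-rich median, but the groups overlapped between 99.6 and 188 CPM, as did the cow means (107 to 214 CPM against 66.4 to 158 CPM). The exact test of edgeR gave a log2 fold change of -0.68 with p = 0.0395 and an FDR of 0.518, and the quasi-likelihood test an FDR of 0.390. DESeq2 estimated -0.68 ± 0.27 (SE), with an interval from -1.21 to -0.15. DNAJB12 therefore did not pass after correction for the number of loci tested.

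DNAJC5G was the member that the exact test called, on the reads of 1 pool. This gene belongs to the cysteine string proteins, J-domain proteins of secretory vesicles. It had 361 counts over the 15 pools, of which C2.1 held 355 (98.3%, 63.1 CPM), while the next control pool had 0.165 CPM and the highest methionine-rich pool 0.337 CPM. The exact test of edgeR gave a log2 fold change of -7.47 (FDR 0.0606), a value that depends on the prior count. The quasi-likelihood test gave an FDR of 0.302, and DESeq2 estimated -0.92 ± 3.07 (SE) with no adjusted p. By default DESeq2 replaces outlying counts in groups of this size, so its estimate need not rest on the 355 counts of C2.1. Without C2.1 no member was called. C2.1 is the pool where the leukocyte markers summed to 1933 CPM, and their part in this value was not tested. DNAJC5G was the only one of the 64 tested members for which 1 pool held at least 50% of the counts (11.9% of all loci).

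DNAJC12, a J-domain protein that assists the enzymes hydroxylating aromatic amino acids, was the only tested member whose cow means did not overlap, against 2.21% of all loci (1.05% higher in control, 1.16% higher in methionine-rich cows). The control cows had 1.20 to 2.72 CPM and the methionine-rich cows 0.132 to 0.863 CPM. The single pools did overlap, with 0 to 5.27 CPM in control (median 2.40) and 0 to 1.36 CPM in methionine-rich pools (median 0.387), and C1.1 was at 0. The gene had 135 counts over the 15 pools, and the log2 fold change of -1.89 had an FDR of 0.764 by the exact test of edgeR.

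The most uneven member was DNAJB2, a J-domain protein best known from neurons that passes HSP70 clients to the proteasome. It had 173 CPM in C4.1, 69.6 CPM in C4.2, 80.5 CPM in M5.1 and 51.3 CPM in M6.2, and between 0 and 10.8 CPM, with a median of 0.810, in the other 11 pools. The 4 high pools came from 3 cows and both diets. Both pools of cow 4 were high, whereas in cow 5 the second pool had 2.90 CPM and in cow 6 the first had 0.273 CPM. The SD of log2 CPM of DNAJB2 was 2.19, and only 25 of the 10519 tested loci had a larger one. The log2 fold change between the diets was -1.43 (FDR 0.916 by the exact test of edgeR).

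DNAJA4, a relative of DNAJA1, was high in the same pools as DNAJB2, with 24.6 CPM in C4.1, 20.4 CPM in C4.2, 15.7 CPM in M5.1 and 17.2 CPM in M6.2. The next pool was C2.2 with 8.82 CPM, and the median of the other 11 pools was 0.450 CPM. This shared pattern was noticed after the values were seen and carries no test.

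**Figure D4:**
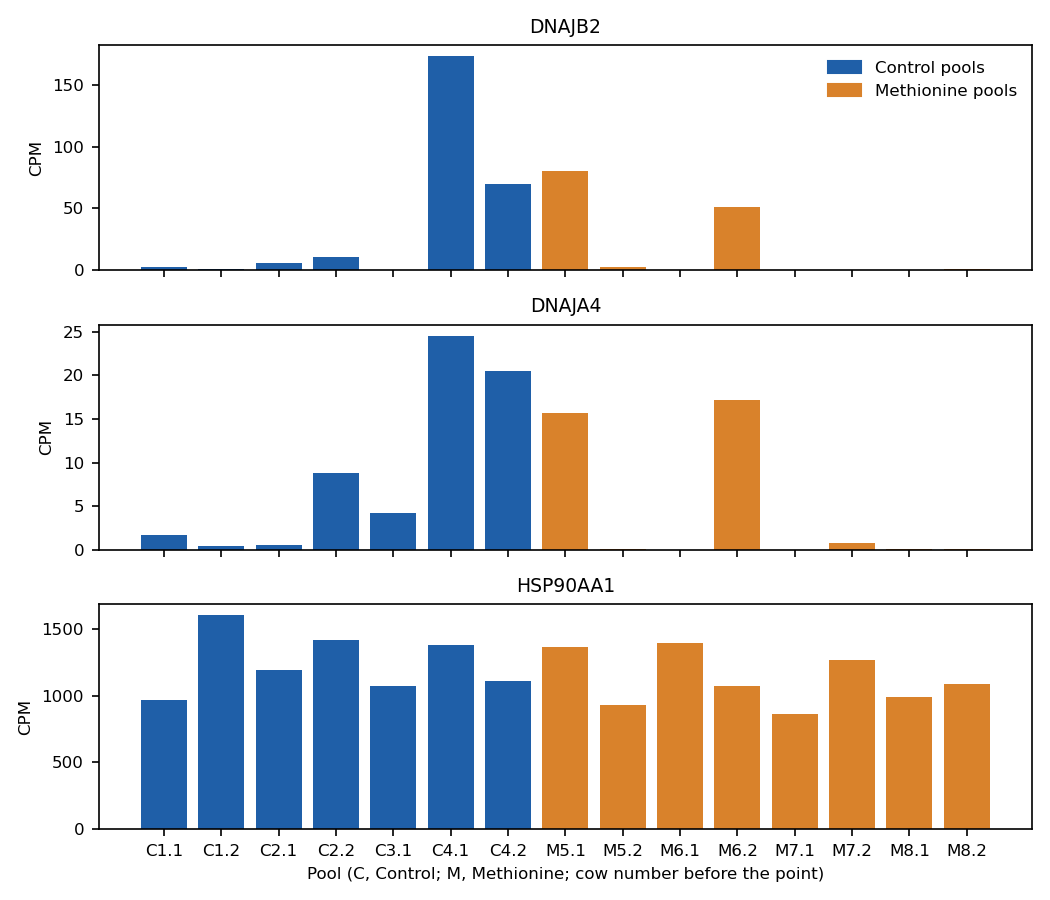
CPM (y axes from 0) of DNAJB2 (top), DNAJA4 (middle) and HSP90AA1 (bottom) in each of the 15 pools (x axis), coloured by diet. DNAJB2 and DNAJA4 are high in C4.1, C4.2, M5.1 and M6.2, whereas HSP90AA1 lies between 862 and 1605 CPM in all pools.

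The spread of the members was described against that of all loci. The median SD of log2 CPM over the 15 pools was 0.67 for the 64 members and 0.83 for all tested loci, and for the loci with at least 100 CPM it was 0.56 for the 20 members and 0.60 for all 1410. In the median member the leading pool held 15.1% of the counts, against 19.5% over all loci. The pools of a cow were hardly more alike than those of different cows on the same diet. The mean difference in log2 CPM within a cow (7 pairs of pools) was smaller than that between cows (42 pairs) for 33 of the 64 members (51.6%), against 49.4% of all loci, with medians over the members of 0.68 within cows and 0.76 between cows. Pool C2.2 was the highest for 14 of the 64 members (21.9%, against 10.9% of all loci) and C4.2 for 11 (17.2%, against 13.0%). Both are the pools for which the study gives no RNA quality number, and the part of RNA quality was not tested.

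**Figure D5:**
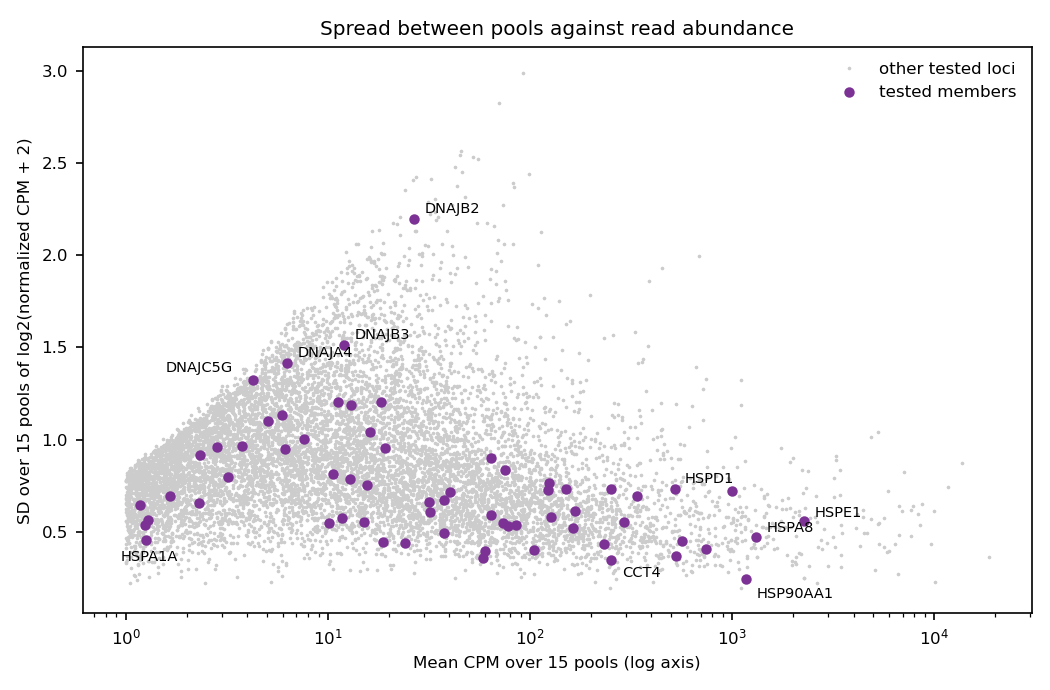
SD of log2(normalized CPM + 2) over the 15 pools (y axis) against mean CPM (x axis, log scale), with the 64 tested members in purple and the other tested loci in grey. HSP90AA1 (SD 0.25) lies at the lower edge of the cloud and DNAJB2 (SD 2.19) near the upper edge.

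Among the remaining members, 4 had no read in any of the 16 pools (DNAJB13, DNAJB8, HSPB6 and HSPB9). DNAJB13 and DNAJB8 are best known from the testis and HSPB6 from muscle. DNAJB7, HSPA1L, DNAJC22 and DNAJC5B, which were not tested either, had their reads mostly in 1 pool, and HSPA1L had 20 counts, all in C4.2, and DNAJC22 had 60 counts, of which M7.2 held 85.0%. HSPB3, a small heat shock protein known from muscle, was measured in 13 pools with at least 3 counts, at up to 24.4 CPM in control and 21.4 CPM in methionine-rich pools. DNAJB6, which keeps aggregation-prone proteins soluble, had 65.4 to 143 CPM in control (median 81.8) and 63.1 to 164 CPM in methionine-rich pools (median 110.2), with a log2 fold change of 0.19. DNAJC2, which works at the ribosome, had 44.3 to 182 CPM in control (median 72.0) and 47.3 to 139 CPM in methionine-rich pools (median 57.8), with -0.11.

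The genes around the chaperones were examined by the same fit: 4 tested heat shock factors and their binding proteins, 35 co-chaperones and 13 further genes of the unfolded protein response. None of the 52 was called in either direction. HSF1, the factor that drives the heat shock response, had 3.99 to 31.8 CPM in control (median 11.7) and 8.81 to 28.4 CPM in methionine-rich pools (median 13.0), with a log2 fold change of -0.08. HSF2, its relative in development, had a log2 fold change of -0.25. The median log2 fold change was -0.08 over the co-chaperones and 0.02 over the genes of the unfolded protein response.

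GRPEL2, a nucleotide exchange factor of the mitochondrial HSP70, was the only one of the 52 with an unadjusted p under 0.05 by the exact test, a share below the 8.54% of all loci. It had 2.85 to 24.0 CPM in control (median 14.4) and 16.1 to 107 CPM in methionine-rich pools (median 37.0), and its cow means did not overlap, which held for 2 of the 52 genes and for 2.21% of all loci. The exact test of edgeR gave a log2 fold change of 1.67 with p = 0.00368 and an FDR of 0.183, the quasi-likelihood test an FDR of 0.323, and DESeq2 an estimate of 1.70 ± 0.53 (SE), so it did not pass after correction. The cow means of PDIA3, a disulfide isomerase of the endoplasmic reticulum, did not overlap either, with 6.76 to 37.4 CPM in control pools (median 15.04), 16.7 to 38.8 CPM in methionine-rich pools (median 32.0), a log2 fold change of 0.83 and an FDR of 0.678 by the exact test of edgeR.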

How the data were processed

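RNA of 16 blastocyst pools was sequenced. The authors mapped reads to the bovine genome bosTau7 with TopHat2 2.0.4 (at most 2 mismatches), assembled transcripts with Cufflinks 2.0.2 and counted reads per gene with HTSeq (mode intersection-nonempty). The deposited files hold these raw counts, not normalized, as 1 table per pool. The strand setting of the counting is not given in the sources used here, so reads of overlapping genes may be mixed. Of 22358 loci, 182 were listed under several names, and each was entered once.

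Here CPM was computed over the pool total. Loci with summed CPM of at least 15 over 15 pools were tested with edgeR 4.0.16 in R 4.3.3 (TMM, common and then tagwise dispersion, exact test, Benjamini-Hochberg adjustment over all 10519 loci), beside the quasi-likelihood test. Standard errors and 95% Wald intervals came from DESeq2 1.42.0, on its own estimate. DESeq2 was run with its default settings, under which outlying counts are replaced in groups of this size before the final fit. limma 3.58.1 with voom took the cow as random effect. The code was tested on simulated counts. SDs used log2(TMM-normalized CPM + 2). Intervals and floors of 3 counts cover counting error or the spread between pools only. All pools were distinct libraries (chi-square between pools at least 70.6 per degree of freedom).

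Named genes were all inducible members and TRiC subunits, the 12 members with the highest mean CPM, members with an FDR under 0.1 or an unadjusted p under 0.05, members whose cow means did not overlap, and the highest 2 or 3 of each class. Other named genes were chosen after their values were seen. Members and lists were chosen with earlier results of these data known. Alternatives covered the test, scaling, filter, pools used, pools of a cow summed, and each cow or pool left out. Sequences and genome positions were not used here.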

Additional observations from a re-analysis of the deposited data

Results flagged for a closer look

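Dixon's criterion was applied to 66 groups of 7 or 8 pools (26 named members and 7 class sums, in each diet). A pool stood apart from the rest in 13 of them. The criterion's chance rate of about 1 in 20 holds for independent, normally distributed values. The class sums contain named members, and HSPA6 and DNAJC5G had no reads in most methionine-rich pools, so the 13 cannot be set against that rate. DNAJC5G was named for the reads of C2.1, so its control flag adds nothing. In control, C4.2 stood apart for CCT2 (333 CPM), CCT6A (172 CPM), CCT7 (571 CPM), HSPA8 (3168 CPM) and HSPD1 (1443 CPM), C4.1 for CCT6B (16.5 CPM), and C2.1 for DNAJC5G (63.1 CPM). In the methionine-rich pools, M5.2 stood apart for HSPA6 (3.17 CPM), M7.2 for HSPB1 (304 CPM), M6.1 for CCT2 (343 CPM), M8.1 for CCT6B (27.1 CPM), M7.1 for CCT8 (984 CPM) and M6.2 for DNAJC5G (0.337 CPM, 2 counts). C4.2 accounts for 5 of the 13.

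Pool C3.2, left out of the comparison, exceeded all 15 other pools for 6 members beyond counting error. These were DNAJC19 with 324 CPM (next highest pool 223 CPM), DNAJA2 with 445 CPM (137 CPM), DNAJC8 with 295 CPM (152 CPM), CCT5 with 172 CPM (105 CPM), HSP90B1 with 191 CPM (149 CPM) and DNAJB7 with 394 CPM (3.37 CPM). The inducible sum of C3.2 was 640 CPM, below all other pools. C3.2 has 1745048 counts in all. The study reports that an unexpectedly large part of its reads fell outside annotated exons, and the part of this in these values was not tested.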

How the results depend on the processing

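The 1 member called higher in control (DNAJC5G) was not called by the quasi-likelihood test of edgeR, DESeq2 (which gave it no adjusted p) or voom with the cow as random effect, without the filter, with the pools of a cow summed (either edgeR test) or with counts under 1% of the highest set to 0, the count being 0 each time. The count was also 0 with a minimum of 10 counts per pool and without C2.1, where DNAJC5G had too few reads to be tested. Leaving out single cows or pools gave 0 to 1, and DNAJC5G was called in 10 of the 20 such fits that tested it. At an unadjusted p under 0.05 the count was 2. No member was called higher in methionine-rich pools under any alternative tried. With all 16 pools, 1 co-chaperone was called higher in control, SIL1, with 565 counts in C3.2 and 23 over the other 15 pools. The TRiC difference moved from 124 to 364 CPM without C4.2, an alternative added after seeing the data. Of 838 fold changes of 25 named tested members under alternatives, 807 kept their call or moved by less than 1 SE, 17 (all of DNAJC5G) lost the call and 14 moved by 1 SE or more, and 13 members had no change of sign. The median over all loci shifted by less than 0.1 under every scaling. Each cow belonged to 1 diet, so the cows cannot be paired. The diets share only the pool numbers 1 and 2, and pools of the same number but different diets did not deviate together (mean correlation of their deviations from the group means -0.0088 over 28 pairs, against 0.00871 for different numbers). With these numbers as a replicate block, added after seeing the data, the quasi-likelihood test of edgeR called 0 members, as it did without the block, and 2 had an unadjusted p under 0.05. HSPA1A, HSPA6 and DNAJC12 had only 128, 55 and 135 counts.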
